A study of Mus musculus with 8 samples.

Results

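DNA methylation of mouse leukaemic progenitors that had received AG120 together with azacitidine was compared with that of progenitors that had received azacitidine alone, in 4 of the 8 libraries of the series. Members of the comparison were genome regions read well enough in all 4 libraries. Of 320276 tiles of 1000 bp with any read on the 19 autosomes, 46276 had at least 3 CpG positions and at least 20 reads in each of the 4 libraries. Of 3883480 autosomal CpG positions, 71221 had at least 20 reads in each of the 4. A further 10924 windows, from 1000 bp before to 500 bp after a gene start, passed the same filter as the tiles and stood for 10924 of 27025 genes with a listed start.

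All groups were I1DN leukemic progenitor cells, sorted as cKit+/Cd11b-, from mice transplanted with I1DN leukaemic cells and treated for 5 days. The AZA group received azacitidine and the group called the combination here received AG120 + AZA, with 2 libraries each. The Vehicle and AG120 groups, also with 2 libraries each, entered only where they are named. The labels state no mouse age, dose or schedule, and they do not say whether the 2 libraries of a group came from separate mice, so every test measures the spread between these libraries, which may be technical. Each library was made by reduced representation bisulfite sequencing, in which CpG-rich restriction fragments are read after bisulfite has converted unmethylated cytosines. The methylation level of a position, tile or window is the percentage of its reads that called the cytosine methylated.

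Mutant IDH1 makes 2-hydroxyglutarate, which inhibits the TET dioxygenases that oxidise 5-methylcytosine. AG120 (ivosidenib) blocks the mutant enzyme. Azacitidine is a cytidine analogue that is phosphorylated, built into nucleic acid and there traps DNA methyltransferases, so that the methyl marks are not copied fully when a cell divides. In mammalian genomes most CpGs are methylated, while CpG-dense gene starts mostly are not.

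The sequence around 5 of the gene starts named below is given first. The letters are RefSeq promoter sequences on GRCm38.p6, whose coordinates are those of mm10, written in the direction of the gene. They run from 250 bases before the start to 30 bases after it in the coding genes Rrm1, Ccne1 and Dnaaf4, and to 50 bases after it in the long non-coding RNA genes C330024D21Rik and 4933427I22Rik. Capitals mark the CpGs that were read in all 4 libraries. Rrm1 is at chr7:102441445-102441724 on the plus strand, Ccne1 at chr7:38107461-38107740 on the minus strand and Dnaaf4 at chr9:72958535-72958814 on the plus strand. C330024D21Rik is at chr5:67463648-67463947 on the plus strand and 4933427I22Rik at chr4:139943470-139943769 on the minus strand.
Rrm1: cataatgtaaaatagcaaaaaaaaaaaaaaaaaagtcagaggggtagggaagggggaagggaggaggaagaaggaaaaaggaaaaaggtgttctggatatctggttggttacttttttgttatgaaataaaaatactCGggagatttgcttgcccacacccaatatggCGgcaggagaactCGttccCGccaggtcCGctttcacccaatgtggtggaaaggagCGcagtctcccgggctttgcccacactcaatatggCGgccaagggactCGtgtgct
Ccne1: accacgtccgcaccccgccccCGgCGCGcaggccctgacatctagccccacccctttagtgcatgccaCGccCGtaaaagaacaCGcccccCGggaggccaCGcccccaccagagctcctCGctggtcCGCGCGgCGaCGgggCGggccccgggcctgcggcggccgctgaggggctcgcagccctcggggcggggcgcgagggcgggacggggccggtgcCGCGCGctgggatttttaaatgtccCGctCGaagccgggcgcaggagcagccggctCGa
Dnaaf4: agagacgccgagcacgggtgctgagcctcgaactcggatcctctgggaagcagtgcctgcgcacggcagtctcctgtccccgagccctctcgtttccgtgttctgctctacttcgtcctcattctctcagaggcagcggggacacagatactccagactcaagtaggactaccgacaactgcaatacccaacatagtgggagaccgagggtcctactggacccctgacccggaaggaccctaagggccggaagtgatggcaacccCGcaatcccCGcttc
C330024D21Rik: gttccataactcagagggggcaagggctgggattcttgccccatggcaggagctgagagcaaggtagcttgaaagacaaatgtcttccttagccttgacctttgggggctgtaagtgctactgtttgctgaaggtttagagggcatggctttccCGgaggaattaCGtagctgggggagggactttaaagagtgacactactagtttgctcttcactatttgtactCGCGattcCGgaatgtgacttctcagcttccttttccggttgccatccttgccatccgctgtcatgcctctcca
4933427I22Rik: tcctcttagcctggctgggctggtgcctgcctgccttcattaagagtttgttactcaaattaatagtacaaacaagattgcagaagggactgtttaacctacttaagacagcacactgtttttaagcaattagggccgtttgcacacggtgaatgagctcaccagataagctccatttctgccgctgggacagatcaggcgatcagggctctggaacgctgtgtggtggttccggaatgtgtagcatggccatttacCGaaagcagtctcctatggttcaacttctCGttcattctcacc
The printed Rrm1 stretch holds 9 CpGs, of which 8 were read in all 4 libraries, and the Ccne1 stretch holds 39, of which 21 were. In the Dnaaf4 stretch 2 of 18 CpGs, in the C330024D21Rik stretch 5 of 7 and in the 4933427I22Rik stretch 2 of 8 were read in all 4. A level of a region therefore often rests on a part of its CpGs, and on a different part in each library.

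Averaged over tiles, methylation was about 1 percentage point higher in the combination than with AZA alone. This is a mean, and the median tile difference was 0 points (quartiles -4.06 and 6.13). Over gene windows the mean difference was 0.955 points and the median -0.0583, with 4910 windows above and 5792 below. The mean tile level was 49.7% and 48.2% in the AZA libraries and 50.1% and 49.9% in the combination libraries. The groups did not overlap, and the difference of 1.0 point was of the size of the spread between the AZA libraries (SD 1.05, n = 2). With 2 libraries against 2 the exact permutation test has 6 assignments and cannot go below p = 0.333, the value obtained here (two-sided). Without AZA replicate 2, the lowest of the 4, the difference fell to 0.261 points, and without AZA replicate 1 it was 1.74 points. Over single CpG positions the mean level was 41.0% and 39.7% with AZA and 41.4% and 41.5% in the combination, a difference of 1.10 points (exact p = 0.333), or 0.484 points without AZA replicate 2 and 1.71 points without AZA replicate 1. The mean tile level was higher in the combination on each of the 19 autosomes, by 0.244 points on chromosome 12 to 1.89 points on chromosome 3. The groups overlapped on 8 of the 19, and AZA replicate 2 was the lowest library on all 19. On chromosomes 6 and 12 AZA replicate 1 lay above both combination libraries. Tiles near gene starts had 12.7% and 12% with AZA and 13.5% and 13.2% in the combination. In tiles inside genes the levels were 62.1% and 60.3% against 62.3% and 62.1%, and in tiles between genes 72.5% and 70.9% against 72.7% and 72.6%.

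The libraries of the 2 groups differed in where their reads fell as well as in the calls those reads made. Total CpG calls were 130120463 and 128484739 in the AZA libraries and 97741404 and 90373925 in the combination libraries, and the median tile had 985 and 980 against 755 and 715 reads. Tiles under 5% methylated took 48.9% and 50.2% of the reads in AZA tiles and 40.01% and 41.3% in combination tiles. Summed over every autosomal call, 38.4% and 36.2% were methylated with AZA against 49.8% and 47.3% in the combination. When each read of the member tiles counted once, the difference between the groups was 10.3 points in place of 1.0. The part of these shares in the results was not tested beyond the thinned and shared-position values given below.

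In the quasi-likelihood F-test of edgeR, 0 of 46276 tiles and 0 of 10924 gene windows passed a false discovery rate of 0.05, which is 0% called in both. At an unadjusted p under 0.05 in this test there were 1493 of 46276 tiles, 579 of them higher and 914 lower in the combination. Among windows there were 447 of 10924, 77 higher and 370 lower. Both counts lie below a share of 0.05 of the regions tested, the share that evenly spread p-values would give. limma on log ratios called 0 tiles and 0 windows as well, with 2669 tiles and 690 windows under an unadjusted 0.05, both somewhat above that share. The likelihood ratio test of edgeR called 283 tiles, 152 higher and 131 lower, and DESeq2 called 31, 20 higher and 11 lower, with 22 tiles called by both. Among windows the likelihood ratio test called Clic5 and Zfp759, and DESeq2 called these 2 and Emg1 and Phb2, which share their reads. A count of 0 in this design does not show that no region differed.

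Regions whose 2 combination libraries both lay outside the range of the 2 AZA libraries give a description with no test. They made up 14.5% of tiles in the higher direction (6727) and 16.4% in the lower (7568). With a difference of at least 10 points they were 4356 tiles higher (9.41%) and 3442 lower (7.44%). With at least 50 points they were 302 tiles higher (0.653%) and 199 lower (0.430%). Among gene windows 1280 were higher (11.7%) and 2369 lower (21.7%). With at least 10 points, 558 windows were higher (5.11%) and 322 lower (2.95%), and with at least 50 points 25 were higher (0.229%) and 9 lower (0.0824%). Small differences in gene windows thus lay mostly below, and differences of 10 points or more mostly above, the AZA level. In windows under 5% methylated, 25.4% were lower and 7.28% higher. Median reads per window were 1817 and 1826.5 in the combination against 3516.5 and 3710.5 with AZA, and the part of depth in these counts was not tested. Were the 4 libraries interchangeable, 1 of the 6 assignments would give a higher and 1 a lower region, ties aside. The correlation of tile levels was 0.891 between the AZA libraries and 0.885 between the combination libraries, and between libraries of different groups it was 0.879 to 0.888 (Pearson's r across 46276 tiles, which share libraries and are not replicates). A pair of libraries from different groups thus resembled each other about as much as a pair from 1 group.

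The difference between the groups changed with the level of methylation and was largest in tiles and windows of 20% to 50%. In the 3881 tiles of that class the mean level was 32.8% and 29.96% with AZA and 37.0% and 35.1% in the combination, 4.64 points higher (exact p = 0.333, the smallest possible). Not overlapping and higher were 23.3% of these tiles, against 14.0% not overlapping and lower. The contrast was wider at gene starts. In the 878 windows of 20% to 50% the mean level was 30.1% and 25.5% with AZA and 37.7% and 34.8% in the combination, 8.46 points higher, with 28.4% not overlapping and higher and 10.6% not overlapping and lower. Both combination libraries lay above both AZA libraries in this class of windows in the plot by level class. Over the positions read in all 4 libraries the difference of these windows was 5.56 points, and leaving out 1 library in turn moved it between 6.12 points (without AZA replicate 2) and 10.48 points (without AZA replicate 1).

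**Figure D1:**
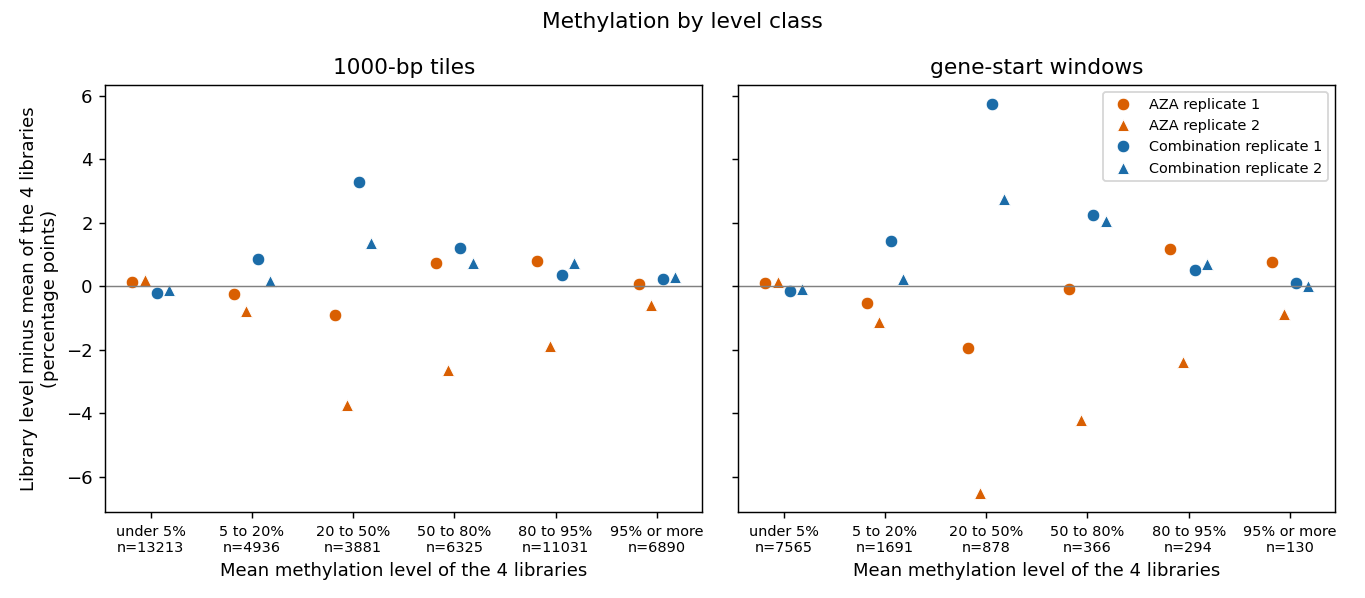
Methylation of each library minus the mean of the 4 libraries, in percentage points, for 1000-bp tiles and gene-start windows grouped by the mean level of the 4 libraries (n below each class). Each point is 1 library. The combination libraries lie 4.64 points above the AZA libraries in tiles of 20% to 50% and 8.46 points above in windows of 20% to 50%, and slightly below them in the class under 5%.

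Tiles between genes showed the smallest contrast within the 20% to 50% class, with 35.2% and 33.6% against 38.2% and 36.5%, and tiles near gene starts the widest, with 30.4% and 26.8% against 36.3% and 34.1%. Near gene starts the class of 50% to 80% was also higher in the combination, at 67.8% and 69.1% against 64.1% and 59.7%. Over all tiles of 50% to 80% the groups overlapped, since AZA replicate 1 had 69.1% and combination replicate 2 also had 69.1%. The groups overlapped as well in tiles of 80% to 95%, where AZA replicate 1, at 89.5%, was the highest of the 4 libraries. Since the class of a tile was set by the same 4 libraries, tiles were also classed by their mean level in the Vehicle and AG120 libraries, over the 34207 tiles that passed the filter in all 8. In the 3000 tiles of 20% to 50% the AZA libraries then had 31.7% and 28.8% and the combination libraries 34.8% and 34.4%, 4.32 points higher. The Vehicle libraries had 30.7% and 31.5% and the AG120 libraries 32.2% and 37.4% in the tiles that these 4 libraries had chosen. The 793 windows of 20% to 50% chosen in the same way had 29.1% and 25.7% with AZA and 32.8% and 32.1% in the combination, a difference of 5.10 points in place of 8.46. The 284 windows of 50% to 80% chosen so had 60.9% and 56.6% against 64.1% and 63.1%. Their difference of 4.82 points was close to that of the 20% to 50% class.

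At the low end the combination had more regions without any methylated read. In the 13213 tiles under 5% the mean level was 1.56% and 1.61% with AZA and 1.19% and 1.31% in the combination, and 23.1% of these tiles were not overlapping and lower against 6.12% higher. When tiles were classed by the Vehicle and AG120 libraries in its place, the AZA libraries had 2.11% and 2.11% and the combination libraries 2.14% and 2.16%, so the lower level in this class was not seen with a class set by other libraries. Tiles with 0 methylated reads were 10.52% and 9.73% with AZA and 17.6% and 16.9% in the combination. Among gene windows they were 16.5% and 14.7% against 32.4% and 30.7%. The combination libraries also had fewer reads per window, with medians of 1817 and 1826.5 against 3516.5 and 3710.5. After every tile was thinned to 20 reads in each library, 27.6% and 27.6% of AZA tiles and 29.7% and 29.5% of combination tiles had none, and the difference went from 7.12 to 1.97 points. Thinned windows gave 60.8% and 60.7% against 64.1% and 63.9%. The groups did not overlap before or after thinning in either kind of region (exact p = 0.333 in each), as the plot of regions without a methylated read shows. Thinning evens out the reads of a region but not which of its positions were covered. The combination libraries covered 1354425 and 1345356 autosomal positions, against 1778435 and 1832801 with AZA.

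**Figure D2:**
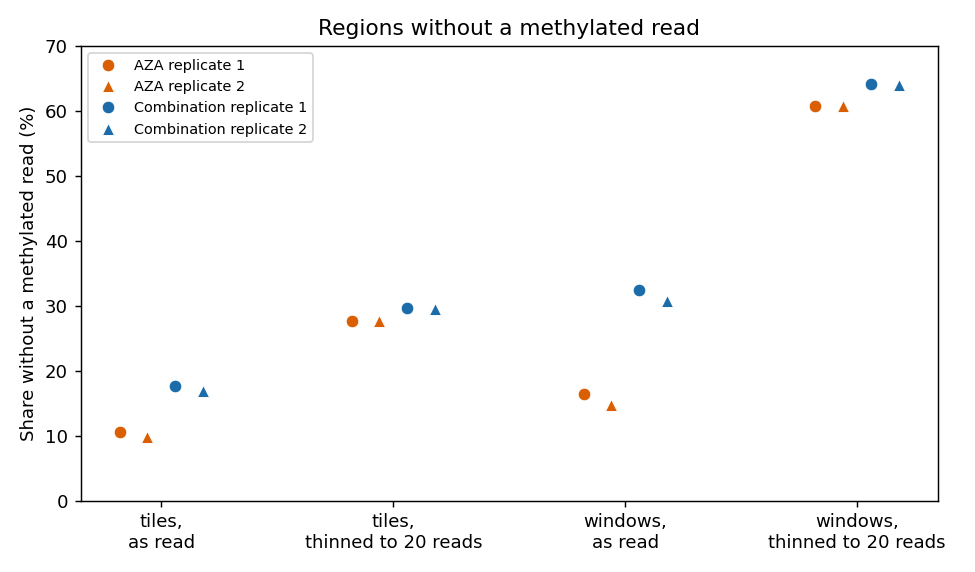
Share of 46276 tiles and 10924 gene-start windows with no methylated read, in percent, in each of the 4 libraries, with all reads and after thinning each region to 20 reads. Each point is 1 library. With all reads the combination libraries reach 32.4% and 30.7% of windows against 16.5% and 14.7% with AZA, and the gap narrows to 64.1% and 63.9% against 60.8% and 60.7% after thinning.

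Single CpG positions gave a partly different pattern. The 6672 positions of 20% to 50% had 31.1% and 28.3% with AZA and 35.2% and 33.8% in the combination. The 5073 positions of 80% to 95% had 88.6% and 82.3% against 91.3% and 91.2%. The 3695 positions of 5% to 20% had 14.3% and 16.4% against 7.42% and 8.45%, the reverse of tiles and windows of that class. These classes too were set by the same 4 libraries. When the 21004 positions with 20 reads in all 8 libraries were classed by the Vehicle and AG120 libraries, the 1746 positions of 5% to 20% had 11.0% and 9.98% with AZA and 11.5% and 11.2% in the combination, so the lower level was not seen there. The 2413 positions of 20% to 50% then had 30.9% and 28.2% against 34.0% and 32.2%, 3.50 points higher, and in those of 80% to 95% the groups overlapped. A position was more often read as wholly methylated or wholly unmethylated in the combination. Among 6816 positions with a mean level of 30% to 70%, 42.7% and 39.2% were at exactly 0 or 100% in the AZA libraries and 51.7% and 51.0% in the combination libraries. Depth at these positions was alike, with medians of 186 and 174 reads against 185 and 168. Among 2393 positions with 30% to 70% in the Vehicle and AG120 libraries, the share was 34.0% and 31.3% with AZA and 43.0% and 43.2% in the combination, with 295 and 263 against 266 and 223 reads. Reads of 1 PCR product are not separate molecules, and the number of molecules behind these reads was not measured. Of the 71221 positions, 191 were at 90% or more in both AZA libraries and at 10% or less in both combination libraries, and 285 the reverse.

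Around gene starts the mean profile of the 4 libraries was nearly the same. In the 100 bp from the start on, 3562 positions of 863 genes had 5.29% and 4.99% with AZA and 6.0% and 5.93% in the combination. In the 100 bp before the start the levels were 7.55% and 6.37% against 7.45% and 7.30%, and the groups overlapped. Between 1500 and 1600 bp after the start they rose to 35.7% and 33.7% against 34.2% and 33.7%.

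**Figure D3:**
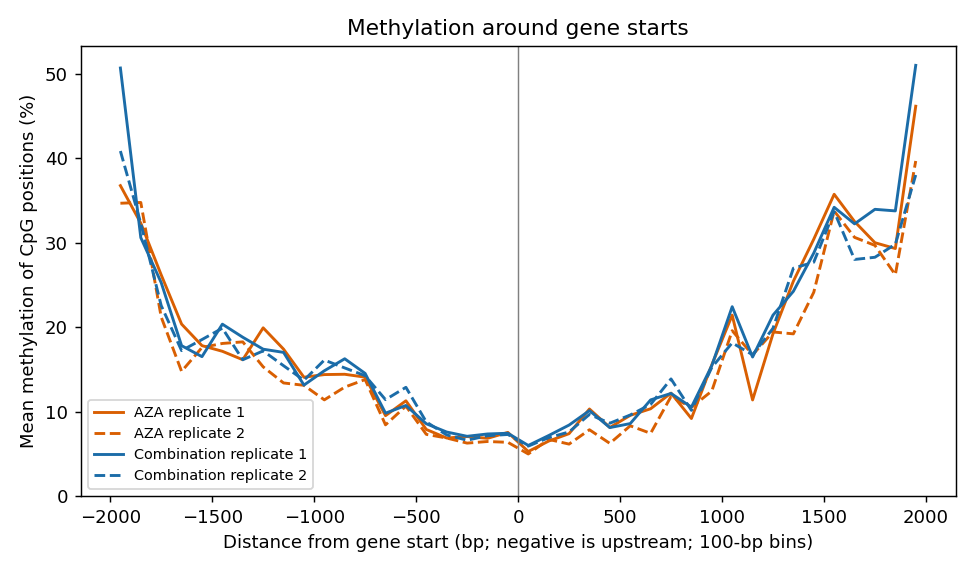
Mean methylation level of CpG positions, in percent, in 100-bp bins by distance from the gene start (negative is upstream), for each of the 4 libraries (solid line, replicate 1; dashed line, replicate 2). All 4 lines dip to 5% to 6% at the start and rise on both sides, and the lines of the 2 groups cross in most of their course.

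Windows named by the rule (the 8 with the smallest p in each direction among those that did not overlap and differed by 10 points or more, all with an adjusted p of 1 in edgeR's quasi-likelihood test) fell into a few shapes. In the first, a window without methylation in either AZA library had some in both combination libraries. Clic5, which encodes a chloride intracellular channel protein, had 0% and 0% with AZA and 53.8% and 77.3% in the combination, the latter from only 52 and 66 reads. Its 12 shared positions had 1 read each in combination replicate 2 and 2 each in combination replicate 1, too few to read a level. Dnaaf4, a dynein assembly factor of cilia, had 0% and 0.0469% against 36.1% and 76.3%, with 22 reads in AZA replicate 1. In the printed Dnaaf4 stretch the CpG 24 bases after the start was at 0% and 0% with AZA (2 and 194 reads) and at 100% and 97.3% in the combination (89 and 111 reads), while the CpG 15 bases after it was at 100% and 0% in the combination.

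Smaller differences of this shape were seen at Zfp644, Arid3b, Crkl and Rint1. Zfp644, a zinc finger gene, had 0.0572% and 0.0477% with AZA and 11.4% and 9.64% in the combination, on at least 1691 reads per library. The Vehicle libraries had 0.888% and 0.607% and the AG120 libraries 0% and 2.42% there. Within the window 9 positions were read in all 4 libraries, and at 1 of them the groups did not overlap: the position 404 bases after the start had 0% and 0% with AZA and 46.5% and 63.2% in the combination. Arid3b, which encodes an AT-rich DNA-binding protein, had 0.0553% and 0.323% against 9.12% and 14.0%. On shared positions Arid3b kept that contrast, with 0.058% and 0.354% against 10.4% and 14.0%, but at none of its 43 shared positions were the groups apart, since the methylated positions differed between the combination libraries. Crkl, an adaptor protein of growth factor signalling, had 0% and 0.0487% against 14.6% and 7.33%. On shared positions Crkl had 0% and 0.0992% against 6.91% and 0%, so that the groups overlapped. Rint1, a factor of vesicle tethering, had 0% and 0% against 8.02% and 14.1%, the last from 85 reads.

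In the second shape a methylated window was complete in the combination. C330024D21Rik, a long non-coding RNA gene, had 88.2% and 86.9% with AZA and 99.96% and 100% in the combination, and the same values on shared positions. Of its printed CpGs, the one 96 bases before the start had 76.5% and 67.2% with AZA and 100% and 100% in the combination. The CpG 85 bases before the start had 99.7% and 73.9% against 100% and 100%, and the CpGs 24 and 16 bases before it were at 100% in all 4 libraries. Gm35253 had 74.3% and 61.0% against 100% and 100%, though AZA replicate 1 was also at 100% once only shared positions were kept.

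Among windows that were lower, Zfp759 had the widest difference of the 8 named. Zfp759, a zinc finger gene, had 100% and 100% with AZA and 0% and 5.17% in the combination. Its combination replicate 1 had 21 reads, and the Vehicle libraries lay at 100% and 46.0% and the AG120 libraries at 14.0% and 47.8%. Rrm1 encodes the large subunit of ribonucleotide reductase, which makes deoxyribonucleotides and also converts the diphosphate of azacitidine to its deoxy form. Its window had 11.6% and 16.9% with AZA and 0% and 0% in the combination, where 0 methylated reads in all allow a level of up to 0.0999% over the 2 libraries. In the Vehicle libraries the Rrm1 window had 0.148% and 9.03% and in the AG120 libraries 0% and 0%. Of 12 shared positions in the Rrm1 window only the one 52 bases after the start, just past the printed stretch, set the groups apart, with 92.2% and 98.9% with AZA (204 and 180 reads) and 0% and 0% in the combination (190 and 104 reads). All 8 CpGs in capitals in the Rrm1 sequence were at 0% in all 4 libraries, though 6 of them rest on 1 read each in AZA replicate 1 and in combination replicate 2.

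Cldn10, a tight junction gene, had 43.3% and 6.75% against 0% and 0.025%. Of its 8 shared positions the one 403 bases after the start set the groups apart, with 100% and 100% against 0% and 0% and only 3 reads in combination replicate 1. The position 412 bases after the start was at 100% in AZA replicate 1 and at 0% in the other 3 libraries. Cys1, a gene of the primary cilium whose window overlaps that of Gm36129, had 8.32% and 18.8% against 0% and 0%. Osbpl3, which encodes an oxysterol-binding protein, had 7.31% and 39.3% against 0% and 0%, and Bend4 15.8% and 23.5% against 0.152% and 0%. On shared positions AZA replicate 2 was at 0% at Bend4 and the groups overlapped. 4933427I22Rik, another long non-coding RNA gene, had 100% and 100% against 77.4% and 67.3%. At its printed CpG 36 bases after the start the levels were 100% and 100% with AZA and 66.1% and 13.5% in the combination, and at the CpG 7 bases after the start 100% in all 4. Gm15904 had 100% and 100% against 54.4% and 0.531%.

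**Figure D4:**
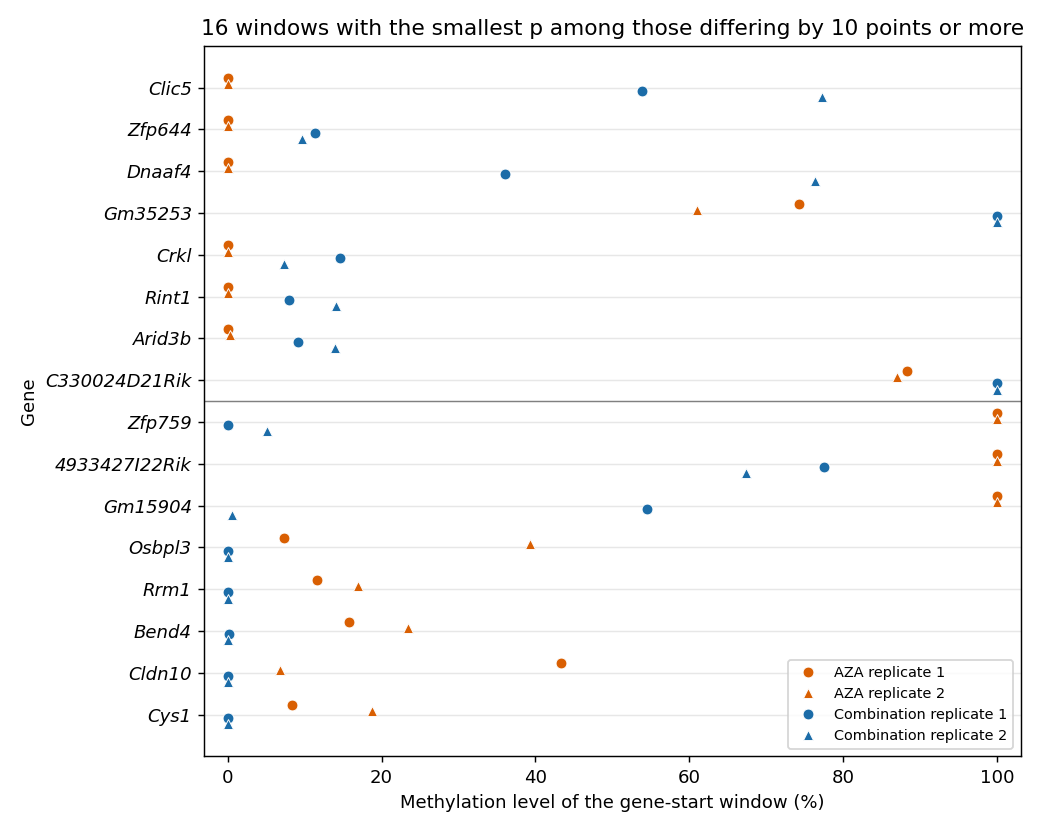
Methylation level of the gene-start window, in percent, for the 8 higher (above the line) and the 8 lower windows named by the rule. Each point is 1 library. Zfp759 goes from 100% in both AZA libraries to 0% and 5.17%, and Zfp644, Crkl, Rint1 and Arid3b go from 0.323% or less to between 7.33% and 14.6%.

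The 16 named tiles lay mostly outside gene starts, again with an adjusted p of 1 for each. Of these, 5 had fewer than 100 reads in at least 1 library and in 8 no library had fewer than 400. The tile 14227 bp from Gm52261 (chromosome 16, 91248001 to 91249000) had 0% and 0% with AZA and 100% and 100% in the combination, on 39, 63, 54 and 678 reads. A tile inside Msi2, an RNA-binding regulator of blood stem cells (chromosome 11, 88455001 to 88456000), had 98.2% and 100% against 0% and 0.286%, on 57 to 419 reads. Both tiles were mixed in the other groups, with 51.9% and 22.2% in Vehicle and 66.7% and 0% in AG120 near Gm52261. At Msi2 the Vehicle libraries had 29.4% and 87.4% and the AG120 libraries 5.41% and 95.7%.

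Other tiles that were higher in the combination lay 89 bp from Esam, an endothelial adhesion gene also used as a blood stem cell marker, with 0% and 1.33% against 99.9% and 100%, and 4718 bp from Cryzl2, with 0% and 0% against 99.98% and 96.7%. Near Esam the Vehicle libraries had 96.9% and 100% (490 and 12 reads) and the AG120 libraries 92.7% and 100% (344 and 20 reads). There the AZA libraries, AZA replicate 1 with 20 reads, stood apart from the other 3 groups. A tile inside Rnf144b, a ubiquitin ligase gene, had 38.8% and 53.1% against 100% and 100%, and one at the start of Vps13a 0% and 0% against 31.4% and 10.46%. Lower tiles were those in Cass4, with 100% and 100% against 60.9% and 62.8%, and in Commd5, with 58.7% and 37.3% against 0% and 0%. One 34664 bp from Gm12486 had 99.97% and 99.7% against 87.1% and 86.3% on at least 3128 reads, and it kept this contrast on shared positions.

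Because the libraries read partly different CpGs, the same regions were read again over the positions that all 4 libraries shared. Of the 4356 tiles higher by 10 points or more, 2069 had enough shared positions, and in 1318 of them (63.7%) the groups still did not overlap. Of the 3442 lower tiles 1555 could be read so, and 1025 (65.9%) still did not overlap. Among gene windows the groups still did not overlap in 177 of 334 higher (53.0%) and 91 of 170 lower windows (53.5%). The shared reads are part of the reads that chose these regions, so these shares are not a separate test. A share over all regions was not set beside them. Of the named regions 7 of 9 tiles and 7 of 10 windows with enough shared positions still did not overlap. The windows were Zfp644, Arid3b, C330024D21Rik, 4933427I22Rik, Rrm1, Cldn10 and Cys1. Zfp644 is counted both as a tile and as a window, on largely the same reads.

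The most deeply read of the named tiles lies 354 bp from Rn18s-rs5, a copy of the 18S ribosomal RNA gene (chromosome 17, 39845001 to 39846000). It had 38.8% and 38.0% with AZA and 57.8% and 48.7% in the combination, on at least 471706 reads per library, with an unadjusted p of 0.00773 in edgeR's quasi-likelihood test. The Vehicle libraries had 30.03% and 33.9% and the AG120 libraries 43.5% and 60.1% in this tile. Both groups with AG120 thus lay above both groups without it. Over the 7 tiles of this repeat the level was 36.1% and 35.7% with AZA and 50.2% and 45.6% in the combination, and 29.6% and 32.3% in Vehicle against 40.6% and 53.8% in AG120. These reads were 1.96% to 2.53% of autosomal calls of a library. Ribosomal DNA is present in many copies that share their reads, so these levels are a mean over copies.

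Of the 16 lists of genes, 164 of 307 entries had a measured window, and 0 windows of any list passed the threshold. Read against the 11.7% of all windows that were higher and 21.7% that were lower, most lists were close to the background. Among genes of the transport, activation and breakdown of azacitidine and of the nucleotides it competes with, 1 of 15 windows was higher and 5 lower. Apart from Rrm1 these were Ctps (CTP synthase), with 4.02% and 1.74% against 0.0452% and 0.0239%, the nucleoside transporter gene Slc29a1, with 7.37% and 2.52% against 1.85% and 0.295%, and Dctd and Nme2. The kinase genes Uck1, Uck2 and Dck, which start the activation of cytidine analogues, had at most 2.05% in any of the 4 libraries. At Cda, which encodes the deaminase that degrades azacitidine, the groups overlapped, with 8.47% and 21.5% against 15.6% and 18.0%.

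Of the methylation machinery 10 of 16 genes were measured, with 0 higher and 1 lower. The lower one was Tet2, at 0.0348% and 0.728% against 0% and 0%. Its level in AZA replicate 1 lies under 0.0492%, the upper limit for a count of 0 over both combination libraries. On shared positions Tet2 had 0.207% and 3.57% against 0% and 0%. Dnmt1 and Dnmt3a, which are among the methyltransferases that azacitidine traps, had 0.0109% and 0% against 0% and 0.127%, and 2.08% and 1.03% against 0.0206% and 1.64%. Dnmt3b had 1.136% and 0.208% against 0% and 0.471%. Tet1 and Tet3 varied within groups, Tet1 with 26.8% and 0% against 9.04% and 0.0294% and Tet3 with 12.7% and 8.77% against 5.48% and 30.5%. Of the genes of isocitrate and 2-oxoglutarate metabolism 0 of 9 windows were higher and 2 lower, Glud1 (0.675% and 0.629% against 0.0291% and 0%, a window shared with Shld2) and Idh3b. On shared positions Glud1 had 0% and 0% against 0% and 0%, so that the contrast was gone. Idh2 had 0% and 0.966% against 0.634% and 0%. The most variable of them was Bcat1, a branched-chain transaminase gene, with 23.9% and 1.23% against 50% and 0%. Idh1 and Itgam, which encodes the Cd11b of the sort, were not measured here.

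Cell cycle genes gave 2 higher and 5 lower windows of 17. Ccne1, which encodes cyclin E1, had the smallest p of all list members (0.00594 unadjusted in edgeR's quasi-likelihood test), with 3.50% and 1.10% with AZA and 0% and 0% in the combination, where the upper limit over its 2 libraries is 0.0429%. In the Ccne1 sequence above, the CpG 159 bases before the start had 27.6% and 0% with AZA and the one 166 bases before it 0% and 38.2%, so that the AZA libraries were methylated at different CpGs. All the other Ccne1 CpGs in capitals had 0.141% or less in each library. Of 17 measured RAS and MAPK genes 0 were higher and 5 lower, Map2k1, Map2k2, Rasa1, Sos2 and Etv5, the last with 6.56% and 8.32% against 0% and 4.22%. The Nras window had 0.703% and 0% against 0% and 0%. Interferon and viral sensing genes had 0 higher and 2 lower of 10, the receptor genes Ifnar1 (1.09% and 2.72% against 0% and 0.0326%) and Ifnar2. On shared positions Ifnar1 had 0% and 0% against 0% and 0.0996%, so that the groups overlapped.

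Stem and progenitor genes gave 3 higher and 4 lower windows of 12. Mecom, a transcription factor of blood stem cells, had 15.6% and 4.15% with AZA and 48.4% and 16.4% in the combination, where the lower combination library was close to the higher AZA library. Tal1, another such factor, had 3.22% and 17.5% against 0% and 0%. Kit, the gene of the marker that the cells were sorted for, had 0.391% and 2.34% against 3.33% and 16.8%, but on shared positions the groups overlapped. Myeloid differentiation genes gave 0 higher and 3 lower of 7. Gfi1, a repressor needed for granulocytes, had 26.1% and 17.7% against 7.25% and 5.29%, and the receptor gene Csf2ra 44.3% and 51.0% against 38.5% and 32.1%, with 26 reads in combination replicate 1. Cebpa had 0.624% and 0.988% against 0.0303% and 0.145%, but on shared positions the groups overlapped (0% and 5.47% against 0% and 0%). Of the HOX genes and cofactors 0 of 5 measured windows were higher and 1, Hoxa13, was lower. Hoxa13 had 0% and 0% against 0% and 0% on shared positions. Tumour suppressor genes gave 1 higher and 5 lower of 12, among them Sfrp5, a WNT antagonist, with 24.4% and 18.9% against 14.8% and 1.26%. Of developmental factors 2 of 14 were higher and 4 lower, the widest at Nkx2-5, with 44.4% and 26.1% against 19.8% and 0%.

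Germline genes, whose starts are often methylated outside the germline, were highly methylated in both groups at 13 of 14 measured windows. The exception was Tdrkh, a gene of the piRNA pathway, with 11.3% and 4.22% with AZA and 1.10% and 0% in the combination. The groups overlapped there on shared positions, with 10.8% and 0% against 0% and 0%. The list had means of 90.1% and 87.6% over 14 windows with AZA and 87.9% and 84.2% in the combination. Of these 3 were higher and 3 lower. Dazl, a germ cell RNA-binding protein, had 93.9% and 94.3% against 96.0% and 100%, and Sycp2, of the synaptonemal complex, 96.9% and 84.6% against 81.1% and 76.4%. Imprinted genes, which carry methylation on the copy of 1 parent, gave 2 higher and 3 lower windows of 12. Igf2r had 38.8% and 43.3% with AZA and 65.3% and 93.9% in the combination, and Meg3 59.9% and 54.7% against 40.04% and 44.4%. Peg3 and Nnat differed most between the 2 combination libraries, with 0% and 75% at Peg3 and 100% and 7.14% at Nnat. Markers of other cells had few measured windows. Of lymphoid, erythroid and megakaryocytic, and stromal and endothelial genes 3, 3 and 4 windows were measured. The groups did not overlap at Bcl11b, a T-cell factor (9.23% and 7.04% against 25.8% and 20.1%), and at Zfpm1 (1.72% and 4.88% against 0.0616% and 0.0244%). Zfpm1 did overlap on shared positions, with 8.14% and 0% against 0% and 0.0583%. Methylation of these windows was not used to estimate the makeup of the samples.

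The question of whether AG120 acted alike with and without AZA was addressed by the interaction of the drugs over all 8 libraries. In edgeR's quasi-likelihood test 0 of 34207 tiles and 0 of 10446 windows passed the threshold (0% called). In it 1030 tiles and 305 windows had an unadjusted p below 0.05, both below a share of 0.05 of the regions tested. For tiles limma also called 0 and gave 1839 below that unadjusted p, slightly above that share. The differences of the combination from AZA and of AG120 from Vehicle share no library and so can be set side by side. Across tiles their correlation was 0.021 (Pearson's r, n = 34207 tiles) and across windows 0.075 (n = 10446 windows), given as descriptions. Over all tiles AG120 lay above Vehicle in 46.2% and below it in 51.3%. Of 3016 tiles that were higher in the combination by 10 points or more, AG120 lay above Vehicle in 51.2%, and of 2237 that were lower AG120 lay below Vehicle in 50.4%. Over all gene windows AG120 lay above Vehicle in 45.6%. Among gene windows AG120 lay above Vehicle in 56.6% of the 514 that were higher in the combination by 10 points or more, and in 56.7% of the 277 that were lower.

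**Figure D5:**
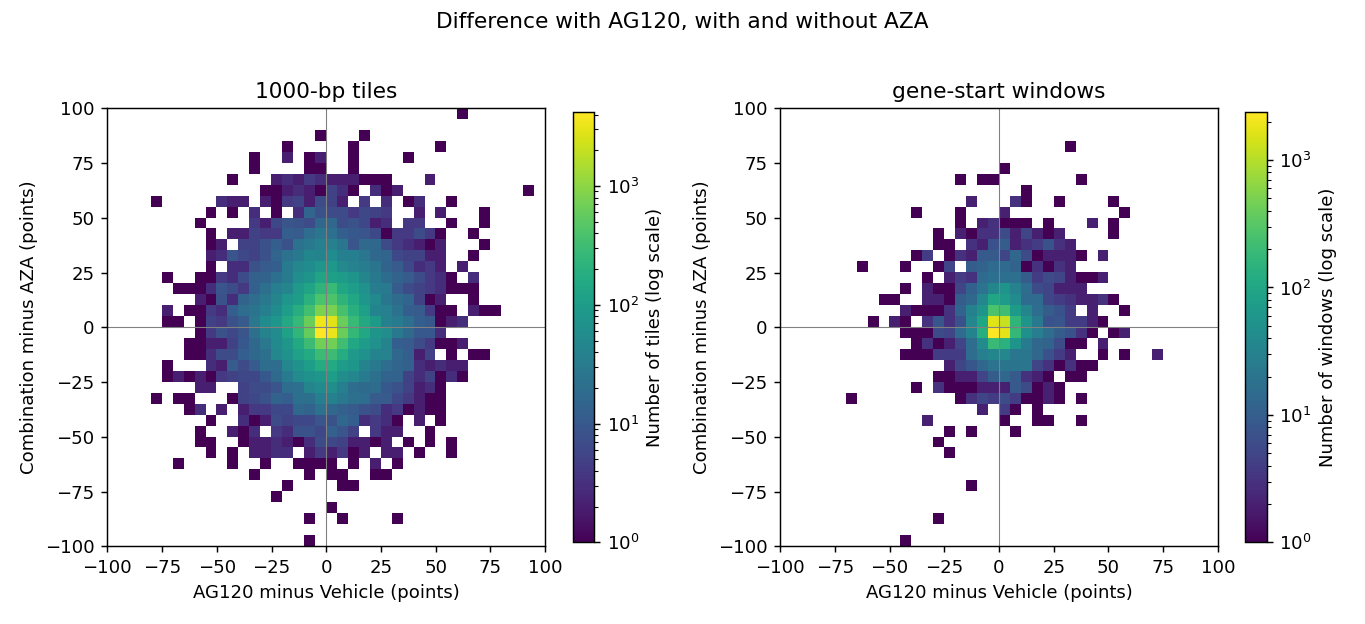
Difference between the combination and AZA (vertical) against the difference between AG120 and Vehicle (horizontal), in percentage points of methylation, for 34207 tiles and 10446 gene-start windows in cells of 5 points. The colour gives the number of regions on a log scale. The clouds are centred near 0 and show no tilt, with a correlation of 0.021 across tiles and 0.075 across windows.

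Neighbouring tiles shared little of their differences. The correlation of the difference between the combination and AZA with that of the tile 1 kb away was 0.044 over 8763 pairs of neighbours. The difference between the AZA libraries gave 0.055 and that between the combination libraries 0.039 over the same pairs, so that neighbouring tiles resembled each other no more in the difference between groups than in the difference between replicates. These values are descriptions across tiles, which share libraries.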

How the data were processed

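CpG methylation was measured by RRBS in 8 mouse libraries, 2 in each of 4 groups, and 4 libraries entered the main comparison. The table that the authors deposited gives 2 raw, unnormalised counts for every library and CpG cytosine, methylated and unmethylated reads, per the file headers, at 4006353 positions on either strand. The mm10 build, Bismark 0.22.3, Trim Galore 0.4.4 and edgeR 3.32 are among the entries of the submitters' processing notes, which state neither role nor order. How duplicates were treated and how complete conversion was is not given in the sources used here, and the spike-in DNA of the library kit was not analysed. All count columns were used.

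Counts were summed over tiles of 1000 bp counted from position 1 and over gene windows around the RefSeq starts of GRCm38.p6, taking for each gene the start with the most covered positions. Windows of neighbouring genes can overlap. Exon, intron and CpG island annotation was not used. Methylated and unmethylated counts entered 1 model in edgeR 4.0.16 (R 4.3.3) that had library terms and, for each group, a methylation term. The test was edgeR's robust quasi-likelihood F-test, two-sided, with Benjamini-Hochberg adjustment over all regions at 0.05. The alternatives used limma 3.58.1 (pseudocount 2), DESeq2 1.42.0, the likelihood ratio test, other read minimums (10 and 50), shifted and 500-bp tiles, positions read in all 4 libraries ("shared positions"), a replicate block and leaving out each library. The quasi-likelihood fit was also run on simulated counts, whose preset spread between libraries may differ from that of these data. No result here rests on that run. Means over regions were compared over libraries with the exact permutation test. Where fewer than 3 regions passed the threshold in a direction, the named ones were the 8 of smallest p among those that did not overlap and differed by at least 10 points, together with the member of each gene list with the smallest p and 9 genes tied to the drugs and the sort. The members, lists and rules were chosen with earlier results of these data known. Classes of level, thinning and the arcsine scale were added after the data had been seen. Depth per library was 90373925 to 130120463 CpG calls in the 4 libraries. Reads from PCR may copy 1 molecule, so limits for a count of 0 (3 counts over both libraries of a group) cover counting error only.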

Additional observations from a re-analysis of the deposited data

How the results depend on the processing

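The counts of 0 tiles and 0 windows past the threshold were the same with 10 or 50 reads, shared positions, all 8 libraries in the fit, limma and limma on the arcsine scale, and for tiles with shifted or 500-bp tiles. Without each library in turn the counts were 0 to 0. The likelihood ratio test called 283 tiles and 2 windows, and DESeq2 31 tiles and 4 windows. The labels name no pairing of the replicate numbers of the 2 groups. The replicate differences correlated at 0.006 across tiles, a value that cannot show whether samples were paired. With a replicate block the counts were 0 tiles and 0 windows.

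The mean differences kept their direction in every alternative run, from 0.261 to 10.3 points for tiles and from 0.484 to 5.46 points for positions, the upper ends with every read counted once. Of 446 alternatives over 52 named results, 8 reversed the direction and 438 did not. The 438 include alternatives whose difference fell to 0, as at Glud1 and Hoxa13 on shared positions, where no direction was left. Many of the 438 could not have changed direction. Other read minimums, the fit on every library and the replicate block leave the levels of a named region, and so its difference, as they are. Leaving out 1 library cannot reverse a region whose groups do not overlap. The count of 438 therefore does not measure how robust the directions are. The cause of the 8 reversals was not tested. On shared positions the difference was 0.0498 points at Ifnar1, 1.88 at Dnmt3b and -2.16 at Kit. With 1 library left out in turn it ranged from -0.901 (without AZA replicate 2) to 0.0279 (without AZA replicate 1) at Dnmt3b and from -0.649 (without AZA replicate 1) to 0.317 (without AZA replicate 2) at Idh2, where it was 0.151 without combination replicate 2. At Dnmt1 the range was -0.00543 (without combination replicate 2) to 0.122, and at Dnmt3a -1.53 to 0.0903 (without combination replicate 1). Shared positions could be used for 23772 tiles, 7227 windows and 38 named regions only. With 2 libraries per group, exact tests over libraries cannot pass 0.05.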
